A study of Mus musculus with 18 samples.

Results

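Kinesins are motor proteins that walk along microtubules, and their transcripts were read here in mouse germinal vesicle oocytes, the fully grown oocytes arrested before the first meiotic division. The members were all genes whose annotated symbol on the array was Kif with a number, from Kif1a to Kif27, or Kifc1 to Kifc3. They were 36 genes of 19057 named genes, read by 87 of 45281 probes. A further 4 kinesins that textbooks list (Kif14, Kif6, Kif19a and Kif26b) had no probe with their symbol here. By their known work the 36 fell into 13 mitotic kinesins, 17 transport kinesins and 6 others with ties to the cilium, to signalling or to little studied roles.

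A kinesin head splits ATP and steps along the microtubule, most towards the growing plus end and a few, such as the Kifc genes, towards the minus end. Some members do not walk but take microtubules apart at their ends. The oocyte has no centrosomes, so its meiotic spindle is built by motors that slide, bundle and focus microtubules, while the transport members are best known from nerve cells and cilia, where they carry vesicles, organelles and ciliary proteins.

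The oocytes came from females 4 weeks old of the MF1 outbred albino stock, taken 45 to 48 hours after PMSG (a gonadotrophin that makes follicles grow) and stripped of cumulus cells. A pool held around 100 cells from at least 2 females, and 3 pools per genotype were labelled as biological replicates. All groups were XX. Batch 1 held Zfy2_Eif2s3y (a single-copy Zfy2 transgene, plus Eif2s3y in many copies in a share of the cells, and called contaminated by the submitters), Zfy2_nf (a Zfy2 transgene without function), Zfy1_lo (1 copy of a Zfy1 transgene) and XX (no transgene). Batch 2 held Zfy2 (1 copy of a Zfy2 transgene) and Zfy1_hi (many copies of a Zfy1 transgene). Zfy1 and Zfy2 are Y-chromosomal zinc finger transcription factors, and Eif2s3y is a Y-chromosomal translation factor subunit. The series title gives the question as what Zfy1 and Zfy2 do to transcripts of these oocytes.

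The 18 bead arrays lay on 3 slides of 6 positions and detected 40.1 to 44.8% of their probes, with a median signal of 89.7 to 115 in batch 1 and 68.9 to 75.1 in batch 2. The 3 Zfy2_Eif2s3y arrays were all on slide 2, with 1 array each of Zfy2_nf, Zfy1_lo and XX, and slide 1 held the other two of each of these. Slide 3 was batch 2, with the Zfy2 arrays at the upper positions and the Zfy1_hi arrays at the lower, so place on that slide and genotype cannot be told apart. The Zfy2 probe was detected on all 3 arrays of Zfy2_Eif2s3y, Zfy1_lo, Zfy2 and Zfy1_hi and on 0 arrays of Zfy2_nf and XX. That probe did not tell Zfy2 transgenes from Zfy1 transgenes, but 1 of 2 Zfy1 probes was detected on all 3 arrays of Zfy1_lo and of Zfy1_hi, on 1 Zfy2_Eif2s3y array and on 0 arrays of the other groups. The other Zfy1 probe was detected on all 3 arrays of every group, XX included. Of 2 Eif2s3y probes, 1 was detected on all 3 Zfy2_Eif2s3y arrays and on 0 others. The other Eif2s3y probe was detected on 0 arrays of Zfy2_Eif2s3y, Zfy1_lo and XX, on 2 of Zfy2_nf and on all 3 of Zfy2 and of Zfy1_hi. All 10 oocyte markers were detected on all 18 arrays. Of 12 granulosa and cumulus markers 7 were measured. Cyp11a1 was detected on all arrays, Inhba on 17, Has2 on 16, Fshr on 12, Ptgs2 on 10, Inha on 5 and Hsd3b1 on 4. Of the others, Amh and Foxl2 were detected on 2 arrays each and Star on 0, and Cyp19a1 and Inhbb had no probe with their symbol. The summed signal of the 7 measured was 300 to 949 in Zfy2_Eif2s3y, 764 to 835 in Zfy2_nf, 648 to 885 in Zfy1_lo and 689 to 790 in XX. In batch 2 it was 328 to 408 in Zfy2, against 678 to 722 in Zfy1_hi. The batch 2 difference leaned on Cyp11a1, with a mean of 7.18 (log2) in Zfy2 against 8.87 in Zfy1_hi, while 4 of the 7 changes there were above 0. In bulk pools, fewer cells of a type and less RNA per cell cannot be told apart.

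Oocytes of all genotypes held most of the mitotic and transport kinesin transcripts. Of the 36 genes, 30 were measured, which here means that a probe had a detection p under 0.05 on at least 3 arrays, and 22 of these were detected on all 18 arrays. The mitotic genes split in detection. The 10 measured ones were detected on all 18 arrays, and the other three, Kif2c (a microtubule depolymerase of the centromere), Kif2b (its relative) and Kif20a (a cytokinesis motor), were detected on 0, 0 and 2 arrays. Of 17 transport kinesins 15 were measured and 9 were detected on all arrays. Kif5a (a kinesin-1 heavy chain of neurons) was detected on 1 array and Kifc2 on 0. Of the 6 others 5 were measured and 3 were detected on all arrays, and Kif12 was detected on 1 array. A probe that is not above background gives only a bound on its transcript.

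**Figure D1:**
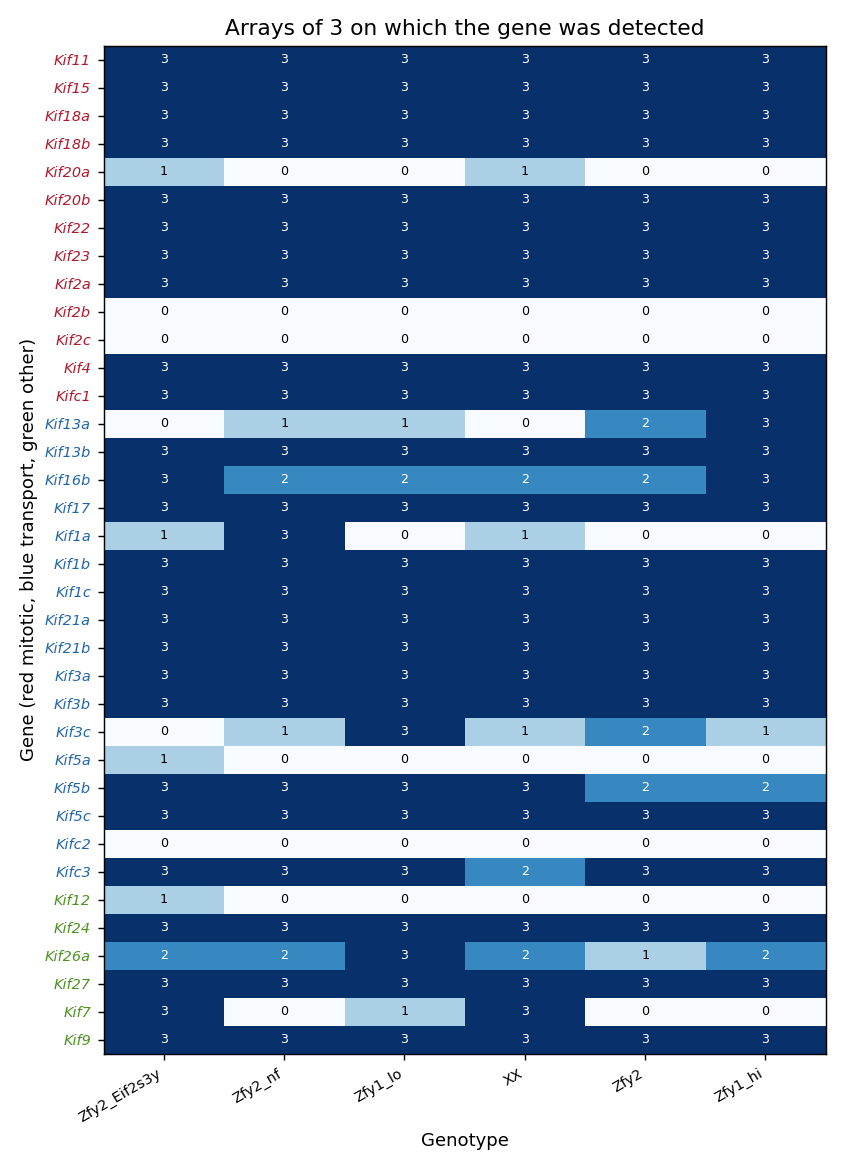
Number of arrays, of 3 per genotype (columns), on which the probe used for each of the 36 kinesin genes (lines) had a detection p under 0.05. The 10 measured mitotic genes show 3 in every genotype, and Kif7 shows 3 in Zfy2_Eif2s3y and XX and 0 in Zfy2_nf, Zfy2 and Zfy1_hi.

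Between genotypes of a batch, 2 kinesin genes passed the test, 1 in each of 2 comparisons. Both were transport motors, as were 15 of the 30 genes measured. Kif21b was 2.00-fold lower in Zfy2_Eif2s3y oocytes than in the mean of XX and Zfy2_nf. Kif3b, by the probe used, was 1.56-fold lower in Zfy2 oocytes than in Zfy1_hi, with no XX arrays in that batch. None of the 10 mitotic genes passed in any of the 4 comparisons made. In Zfy2_Eif2s3y over the mean of XX and Zfy2_nf, 0 of 30 kinesins rose and 1 fell, beside 5.19% and 6.13% of all 12184 genes tested. In Zfy2 over Zfy1_hi, 0 rose and 1 fell, beside 3.07% and 4.42%. In Zfy2_nf over XX 0 of 30 passed, beside 0.0739% of all genes (0.00821% higher and 0.0657% lower), and in Zfy1_lo over XX 0 passed, beside 0% of all genes. With limma's unadjusted p under 0.05, the kinesin counts in these 4 comparisons were 6, 4, 4 and 4 of 30, beside 26%, 20.3%, 8.74% and 7.6% of all genes.

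Groups whose arrays do not overlap were also counted. The arrays did not overlap for 2 of 30 kinesins in Zfy2_Eif2s3y over the mean of XX and Zfy2_nf, beside 14.8% of all genes, and for 5 in Zfy2 over Zfy1_hi, beside 27.3%. For Zfy2_nf over XX the number was 5, beside 12.6%, and for Zfy1_lo over XX it was 4, beside 11.3%. In the comparisons of 3 arrays against 3, the smallest p of an exact two-sided permutation test is 0.1. The calls use limma's estimate of error, shared among genotypes and moderated across genes. The 95% interval lay within a 2-fold change either way for 27, 27, 25 and 25 of the 30 kinesins in the 4 comparisons. The 10 mitotic genes all had such an interval in Zfy2_Eif2s3y over the mean of XX and Zfy2_nf and in Zfy2 over Zfy1_hi.

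**Figure D2:**
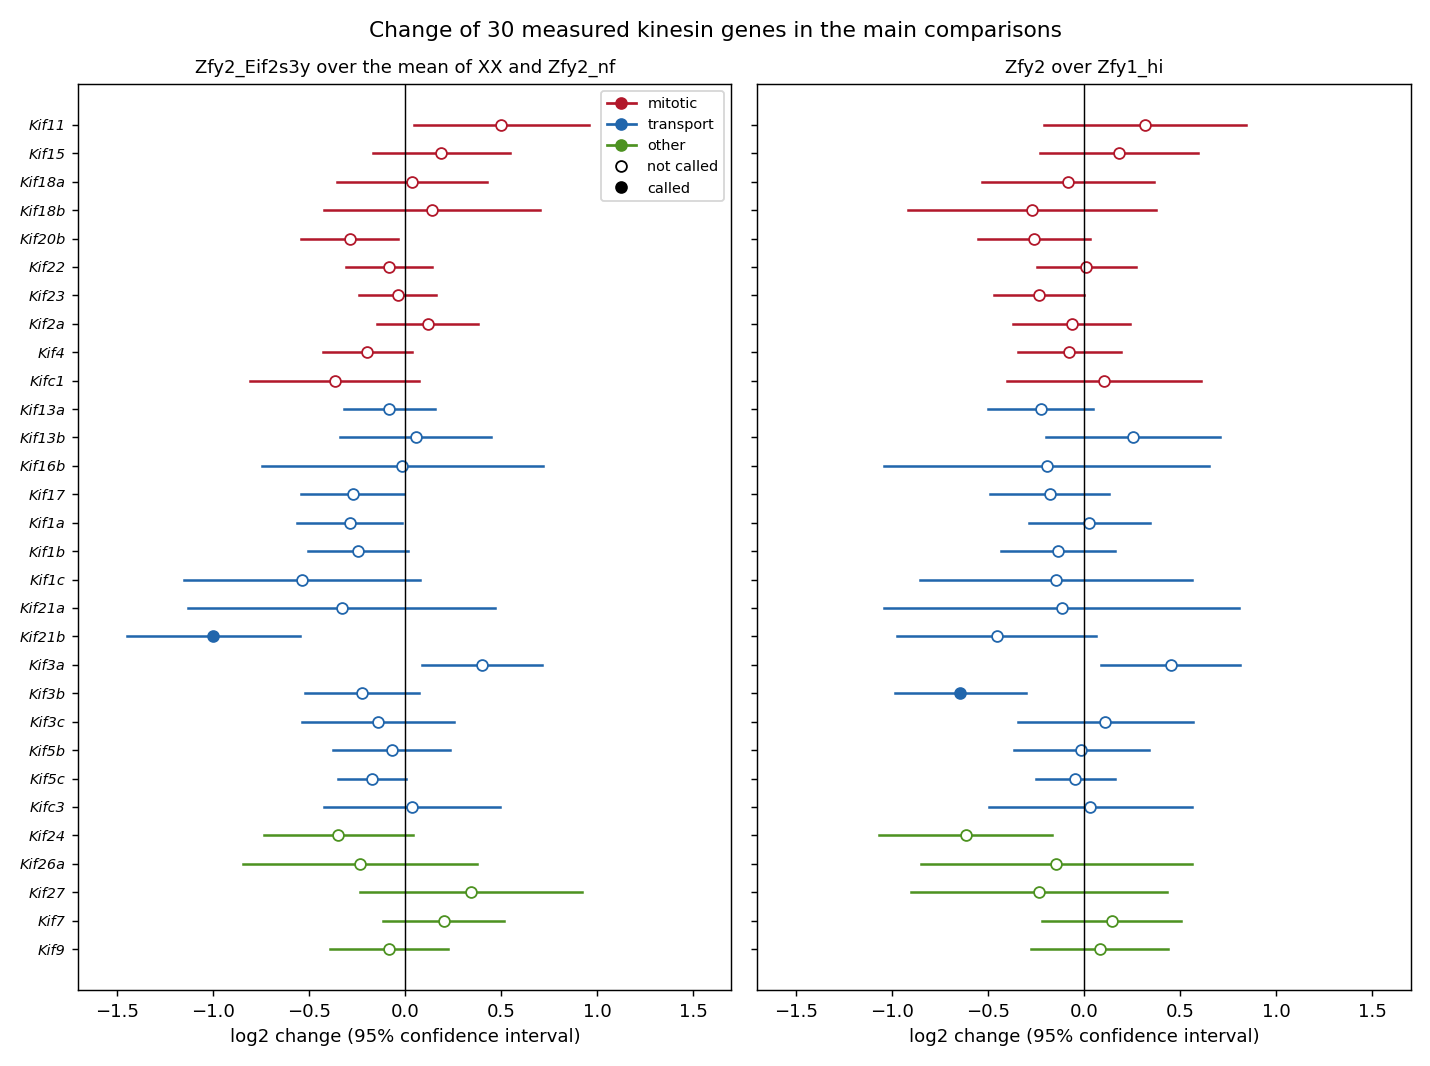
Log2 change of the 30 measured kinesin genes (points) with 95% confidence intervals (lines), on the left for Zfy2_Eif2s3y over the mean of XX and Zfy2_nf and on the right for Zfy2 over Zfy1_hi. Filled points passed an adjusted p of 0.05: Kif21b on the left at -0.998 and Kif3b on the right at -0.64.

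Kif21b, a plus-end motor of the kinesin-4 family that in neurons also restrains microtubule growth, had the largest called change. It read 6.69, 7.04 and 7.44 (log2 intensity) on the Zfy2_Eif2s3y arrays, against 7.91, 8.04 and 7.87 on the Zfy2_nf arrays and 8.46, 8.09 and 7.95 on the XX arrays. The Zfy1_lo arrays read 7.84, 8.38 and 8.39. All 3 Zfy2_Eif2s3y arrays thus lay below all 9 others of the batch. The log2 change was -0.998 (SE 0.21, 95% interval -1.45 to -0.55, adjusted p = 0.00586). Within slide 2 alone it was of like size, at -1.11, with an adjusted p of 0.0921, and with the slide as a fixed block it was -1.13 with an adjusted p of 0.0157. Without the first Zfy2_Eif2s3y array it was -0.81 with an adjusted p of 0.0497.

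In batch 2, Kif21b read 6.22, 7.20 and 6.59 on the Zfy2 arrays and 7.40, 7.07 and 6.90 on the Zfy1_hi arrays. These overlapped, and the log2 difference of -0.45 (95% interval -0.97 to 0.07) did not pass, with an adjusted p of 0.325. Both batch 2 groups lay below every Zfy2_nf, Zfy1_lo and XX array of batch 1, a difference in which batch and genotype cannot be told apart. The single-copy Zfy1 transgene and the transgene without function left Kif21b within -0.48 to 0.56 and -0.74 to 0.30 of XX (95% intervals, log2). Of the 7 granulosa markers measured, 0 rose and 2 fell in Zfy2_Eif2s3y and 0 rose and 1 fell in Zfy2, with 5 and 4 of the 7 changes above 0 and medians of 0.36 and 0.02. Cyp11a1 fell in Zfy2_Eif2s3y, by 1.63 on the log2 scale (adjusted p = 0.000112), and in Zfy2, by 1.68 (adjusted p = 0.000554), and Ptgs2 fell in Zfy2_Eif2s3y, by 0.56 (adjusted p = 0.0325). The 5 others did not pass and differed by 0.06 to 0.93 in Zfy2_Eif2s3y, with Hsd3b1 the highest (adjusted p = 0.124). Of the 10 oocyte markers 0 rose and 2 fell in Zfy2_Eif2s3y and 0 rose and 1 fell in Zfy2, with medians of -0.0001 and 0.02. Kit fell in both, by 0.55 (adjusted p = 0.039) and 0.75 (adjusted p = 0.0233), and Figla fell in Zfy2_Eif2s3y, by 0.68 (adjusted p = 0.00834). Over all genes tested, 5.19% rose and 6.13% fell in Zfy2_Eif2s3y, and 3.07% rose and 4.42% fell in Zfy2. The part of these markers in the kinesin changes was not tested.

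Kif3a and Kif3b are the paired motor subunits of kinesin-2, which moves cargo out along the cilium and, with the accessory subunit Kifap3, carries vesicles elsewhere. Their promoters are shown because the probes used for this pair moved apart, though Kif3a did not pass. The second probes of Kif3a and Kif3b also moved apart in Zfy2_Eif2s3y, at 0.32 and -0.41. In Zfy2 over Zfy1_hi they went the other way, at -0.14 and 0.28. Both are RefSeq sequences of build GRCm38.p6, from 250 bases before to 50 after the gene start, and capitals mark AGGCCT, known as the core of the site bound by Zfx, the X-linked relative of Zfy1 and Zfy2.
Kif3a, chr11:53567119-53567418, plus strand: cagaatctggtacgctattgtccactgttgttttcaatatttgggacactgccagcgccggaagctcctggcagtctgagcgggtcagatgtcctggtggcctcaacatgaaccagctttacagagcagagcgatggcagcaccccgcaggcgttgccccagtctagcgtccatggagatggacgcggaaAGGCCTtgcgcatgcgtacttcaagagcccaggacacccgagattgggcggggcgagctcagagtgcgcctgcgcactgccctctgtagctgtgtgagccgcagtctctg
Kif3b, chr2:153291166-153291465, plus strand: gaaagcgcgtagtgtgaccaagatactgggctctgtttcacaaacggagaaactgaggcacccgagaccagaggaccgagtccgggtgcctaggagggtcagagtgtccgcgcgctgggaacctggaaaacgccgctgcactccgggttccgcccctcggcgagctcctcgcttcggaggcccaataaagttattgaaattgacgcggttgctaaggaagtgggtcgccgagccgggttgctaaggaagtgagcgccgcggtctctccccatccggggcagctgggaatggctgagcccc
AGGCCT reads the same on both strands. It began at position -60 from the start of Kif3a and was not found in the Kif3b window. It stood in 2 of 33 kinesin promoters (Kif3a and Kif4), or 6.06%, and in 10.3% of all 32851 promoters of the same length. The 33 promoters belonged to 29 of the 36 genes.

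Kif3b was lower in Zfy2 than in Zfy1_hi oocytes. Batch 2 held no XX arrays, so a fall in Zfy2 and a rise in Zfy1_hi cannot be told apart, here and in every other result of Zfy2 over Zfy1_hi. Kif3b read 6.65, 6.96 and 6.86 on the Zfy2 arrays and 7.34, 7.35 and 7.71 on the Zfy1_hi arrays, with no overlap. The log2 change was -0.64 (SE 0.16, 95% interval -0.98 to -0.30, adjusted p = 0.0226). The call hung on the array set and the probe. The adjusted p was 0.0914 without the first Zfy2 array, 0.0502 without the third and 0.103 without the third Zfy1_hi array. With the position on the slide in the fit it was 0.171 (change -0.59). That fit took the position effect from batch 1 arrays, because in batch 2 position and genotype are the same split. Place on the slide is thus not controlled for, here or in later batch 2 results with position. A second Kif3b probe, detected on 7 arrays, gave 0.28 in the other direction, with an adjusted p of 0.576. In batch 1, Kif3b read 6.83, 7.21 and 7.19 on the Zfy2_Eif2s3y arrays, 7.52, 7.11 and 7.55 on the Zfy2_nf arrays, 7.37, 7.30 and 7.29 on the Zfy1_lo arrays and 7.04, 7.14 and 7.45 on the XX arrays. There the Zfy2_Eif2s3y arrays overlapped those of Zfy2_nf and XX, and the log2 difference of Zfy2_Eif2s3y from the mean of XX and Zfy2_nf was -0.22 (adjusted p = 0.339).

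Kif3a read higher where the single-copy Zfy2 transgene was present, without passing the test. The Zfy2_Eif2s3y arrays read 8.96, 9.04 and 8.98, against 8.66, 8.90 and 8.57 for Zfy2_nf and 8.16, 8.52 and 8.72 for XX. The Zfy1_lo arrays read 8.75, 8.49 and 8.33. In batch 2 the Zfy2 arrays read 8.97, 8.93 and 9.23 and the Zfy1_hi arrays 8.40, 8.92 and 8.44. In both batches every array with that transgene lay above every array it was set against. The log2 differences were 0.40 (SE 0.15, adjusted p = 0.0929) and 0.45 (SE 0.17, adjusted p = 0.13). With the slide as a fixed block the batch 1 difference was 0.61 and passed, with an adjusted p of 0.0263. A second Kif3a probe gave 0.32 in batch 1 and -0.14 in batch 2. The accessory subunit Kifap3 differed by -0.31 (SE 0.31) in Zfy2_Eif2s3y and by 0.59 (SE 0.35) in Zfy2, with adjusted p-values of 0.58 and 0.388.

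The remaining kinesin-2 members are Kif3c, which can replace Kif3b beside Kif3a, and Kif17, a homodimer that carries receptor vesicles in dendrites. Kif17 read 5.75, 5.64 and 5.47 on the Zfy2_Eif2s3y arrays, 5.90, 5.62 and 5.79 on the Zfy2_nf arrays, 5.94, 5.49 and 5.81 on the Zfy1_lo arrays and 6.06, 5.88 and 6.09 on the XX arrays, with overlap between Zfy2_Eif2s3y and Zfy2_nf. In batch 2 Kif17 read 5.38, 5.85 and 5.51 on the Zfy2 arrays and 5.68, 5.75 and 5.85 on the Zfy1_hi arrays. Its log2 difference was negative in all 4 comparisons, between -0.27 and -0.18, and passed in none (lowest adjusted p = 0.185). Kif3c, chosen here after its values were seen, was near background and detected on 8 arrays. It read 5.04, 5.99 and 5.51 on the Zfy1_lo arrays, all detected, against 5.03, 4.83 and 4.56 on the XX arrays, of which 1 was detected. These did not overlap, and the log2 difference of 0.71 (SE 0.21) had an adjusted p of 0.471.

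**Figure D3:**
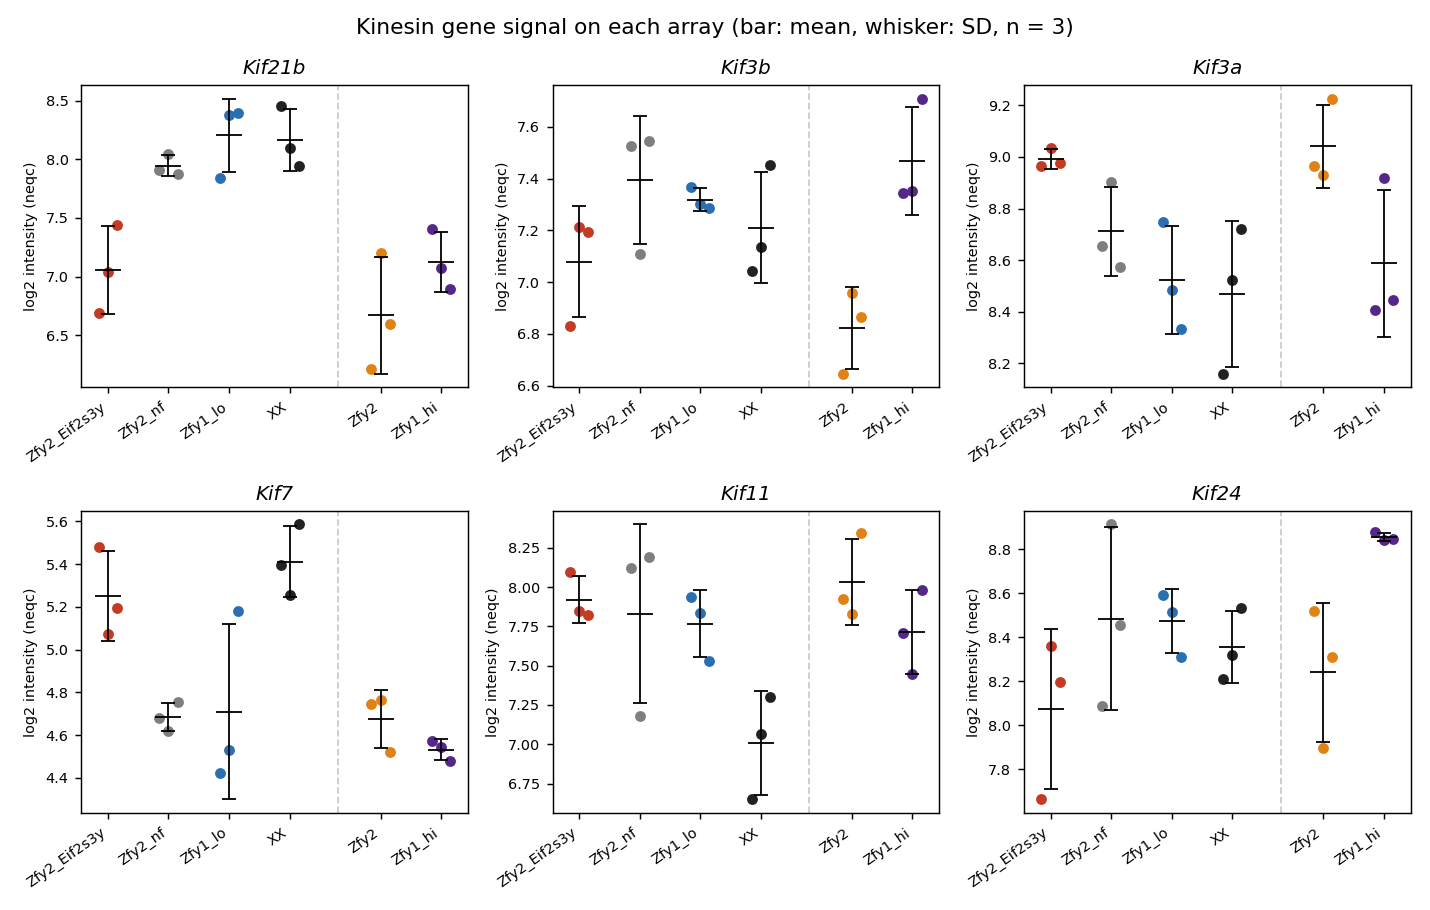
Log2 intensity of 6 kinesin genes on each of the 18 arrays (points) with the genotype mean (bar) and SD (whisker, n = 3), batch 1 left of the dashed line and batch 2 right of it. Kif21b is lowest within batch 1 on the 3 Zfy2_Eif2s3y arrays, and Kif3b is lower on the 3 Zfy2 arrays than on the 3 Zfy1_hi arrays.

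Of the kinesin-1 heavy chains, the general cargo motors, Kif5b and Kif5c were measured. Kif5b, the form found in most tissues, read 5.52, 5.37 and 5.59 in Zfy2_Eif2s3y, 5.67, 5.70 and 5.49 in Zfy2_nf, 5.82, 5.74 and 5.67 in Zfy1_lo and 5.40, 5.88 and 5.23 in XX. In batch 2 Kif5b read 4.82, 5.001 and 4.94 in Zfy2 and 4.85, 4.67 and 5.27 in Zfy1_hi. The groups overlapped in all 4 comparisons, with log2 differences between -0.07 and 0.23. Kif5c, a form enriched in nerve cells, varied least of the measured transport kinesins between replicates, with a mean SD of 0.0687. It read 10.81, 10.75 and 10.92 in Zfy2_Eif2s3y, 10.95, 10.79 and 10.85 in Zfy2_nf and 10.93, 10.93 and 10.91 in Zfy1_lo, against 11.22, 11.08 and 11.09 in XX. All 3 transgenic groups of batch 1 lay wholly below XX. The log2 difference was -0.30 in Zfy2_Eif2s3y with XX alone as control (adjusted p = 0.0544), and in Zfy2_nf and Zfy1_lo the differences were -0.27 and -0.21, with adjusted p-values of 0.415 and 0.653. Kif5c was chosen after its values were seen, and the 3 differences share the 3 XX arrays.

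The kinesin-3 motors carry vesicles and, for Kif1b, mitochondria. The members Kif1a, Kif1b, Kif1c, Kif13a, Kif13b and Kif16b had log2 differences between -0.54 and 0.06 in Zfy2_Eif2s3y over the mean of XX and Zfy2_nf, and between -0.23 and 0.25 in Zfy2 over Zfy1_hi. None passed. The lowest, Kif1c, had an adjusted p of 0.263, and of 0.0424 (change -0.76) without the first XX array, which read 4.87 beside 6.55 and 5.90 on the other two. Kif1a, an axonal vesicle motor, was near background: it was detected on all 3 Zfy2_nf arrays, 1 Zfy2_Eif2s3y array and 1 XX array, and on 0 arrays of Zfy1_lo, Zfy2 and Zfy1_hi. Kif21a, the close relative of Kif21b, differed by -0.33 (SE 0.38, adjusted p = 0.64) where Kif21b fell, with the widest interval of the 30. Over all 15 transport genes that comparison had 3 positive and 12 negative differences with a median of -0.17, beside a median of -0.01 for all genes.

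Mitotic kinesin promoters held TTTGAA, the letters of the CHR (cell cycle genes homology region), in a larger share than all promoters did. The CHR is known from genes whose transcription is held back in resting cells and rises before mitosis. Whether a match of these letters acts as a CHR was not tested. The 13 mitotic kinesin promoters belonged to 12 genes. TTTGAA, on either strand, was found in 9 of 13 mitotic kinesin promoters (69.2%), 1 of 13 transport kinesin promoters (7.69%), 1 of 7 other kinesin promoters (14.3%) and 17.9% of all 32851 promoters. Counted only where it began within 20 bases of the start, a distance chosen after the positions were seen, it stood in 8 mitotic promoters (61.5%), 0 of the transport and other kinesin promoters and 2.17% of all promoters. The 8 are shown as 30-base stretches in the direction of the gene (RefSeq, GRCm38.p6), with each match in capitals, written TTCAAA where it lies on the opposite strand.
Kif11, chr19:37376351-37376380, plus strand: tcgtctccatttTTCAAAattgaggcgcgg
Kif15, chr9:122951050-122951079, plus strand: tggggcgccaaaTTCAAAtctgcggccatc
Kif22, chr7:127042420-127042449, minus strand: gggccccggtaaTTCAAAagagagaagcgg
Kifc1, chr17:33890615-33890644, minus strand: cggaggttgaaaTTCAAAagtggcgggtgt
Kif23, chr9:61946780-61946809, minus strand: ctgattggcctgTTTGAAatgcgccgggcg
Kif18b, chr11:102925104-102925133, minus strand: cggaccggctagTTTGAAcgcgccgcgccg
Kif20b, chr19:34922353-34922382, plus strand: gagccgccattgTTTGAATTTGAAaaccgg
Kif4, chrX:100626072-100626101, plus strand: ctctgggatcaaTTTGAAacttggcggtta
Counted from the start, the match began at position -19 in Kif11 and Kif15, at -17 in Kif22 and at 2 to 20 in the rest. Kif20b held a tandem pair. The ninth gene, Kif2c, had its match at position -103 from the start, and its probe was detected on 0 arrays. All 8 genes with a match near the start were detected on all 18 arrays, as were Kif18a and Kif2a without one.

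Kif11 pushes spindle poles apart and Kif15 can stand in for it. Kif11 read 8.09, 7.85 and 7.82 in Zfy2_Eif2s3y, 8.12, 7.18 and 8.19 in Zfy2_nf and 7.94, 7.84 and 7.53 in Zfy1_lo, against 6.65, 7.07 and 7.30 in XX. In batch 2 Kif11 read 7.92, 7.83 and 8.34 in Zfy2 and 7.71, 7.45 and 7.98 in Zfy1_hi. The XX arrays were the low ones: of the other 15 arrays, 1 (a Zfy2_nf array at 7.18) lay under the highest XX array. The log2 difference from XX was 0.83 (SE 0.25, adjusted p = 0.325) in Zfy2_nf and 0.76 (adjusted p = 0.471) in Zfy1_lo. Zfy2_Eif2s3y over the mean of XX and Zfy2_nf gave 0.50 (adjusted p = 0.15), and over XX alone 0.91 with an adjusted p of 0.027. These differences share the same 3 XX arrays. Kif15 differed by 0.19 and 0.18 in the comparisons with Zfy2_Eif2s3y and Zfy2 (SE 0.17 and 0.19).

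Kifc1, a minus-end motor that focuses spindle poles, read 5.70, 6.71 and 6.30 in Zfy2_Eif2s3y, 6.08, 6.51 and 6.57 in Zfy2_nf, 6.63, 6.96 and 6.49 in Zfy1_lo and 6.76, 6.78 and 6.90 in XX. In batch 2 Kifc1 read 7.68, 7.30 and 6.99 in Zfy2 and 7.30, 6.90 and 7.46 in Zfy1_hi. The Zfy2_nf arrays lay below the XX arrays, with a log2 difference of -0.43 (adjusted p = 0.648). Batch 2 read 6.90 to 7.68 and batch 1 5.70 to 6.96, with batch and genotype not to be told apart. Zfy2_Eif2s3y differed from the mean of XX and Zfy2_nf by -0.37 (95% interval -0.80 to 0.07). A second Kifc1 probe, also detected on all 18 arrays, had the other sign in both, at 0.19 in Zfy2_nf over XX and 0.13 in Zfy2_Eif2s3y.

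Kif18a, which damps chromosome movements at the metaphase plate, was the 1 kinesin of 30 whose batches did not overlap, beside 2.68% of all genes that read lower throughout batch 2 and 2.31% that read higher. It read 6.24, 6.95 and 6.85 in Zfy2 and 7.06, 6.84 and 6.39 in Zfy1_hi. Batch 1 gave 7.64, 7.39 and 7.30 for Zfy2_Eif2s3y, 7.28, 7.61 and 7.18 for Zfy2_nf, 7.20, 7.23 and 7.32 for Zfy1_lo and 7.80, 7.41 and 7.17 for XX. Within a batch the compared groups overlapped, with log2 differences of 0.04 in Zfy2_Eif2s3y and -0.08 in Zfy2 (SE 0.18 and 0.21). Kif18b, its relative that trims astral microtubules, differed by 0.14 in Zfy2_Eif2s3y by the probe used and by 0.64 by another, which passed among all probes (adjusted p = 0.0161). In Zfy2 over Zfy1_hi its 3 probes ran from -0.27 to 0.44.

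Kif22 and Kif4 are chromokinesins, which push chromosome arms away from the poles, and Kif4 also sets the length of the central spindle with Prc1. Kif4 read 9.95, 9.92 and 10.05 in Zfy2_Eif2s3y, 10.21, 10.19 and 9.89 in Zfy2_nf, 10.12, 10.24 and 10.05 in Zfy1_lo and 10.17, 10.22 and 10.33 in XX. In batch 2 Kif4 read 10.35, 10.03 and 10.01 in Zfy2 and 10.32, 10.07 and 10.23 in Zfy1_hi. The genotypes overlapped in every comparison, with log2 differences between -0.20 and -0.08. Kif22 differed by no more than 0.08 on the log2 scale in size in all 4 comparisons, with an SE of 0.11 or 0.12.

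Kif2a, which takes microtubules apart at the spindle poles, read 10.46, 10.57 and 10.77 in Zfy2_Eif2s3y, 10.29, 10.53 and 10.62 in Zfy2_nf, 10.40, 10.43 and 10.39 in Zfy1_lo and 10.61, 10.35 and 10.48 in XX. In batch 2 Kif2a read 9.96, 10.32 and 10.48 in Zfy2 and 10.18, 10.46 and 10.30 in Zfy1_hi. The groups overlapped in all 4 comparisons. By the probe used, the 4 log2 differences lay between -0.07 and 0.12, and their 95% intervals between -0.38 and 0.38. The 3 Kif2a probes ran from 0.12 to 0.29 in Zfy2_Eif2s3y and from -0.06 to 0.42 in Zfy2 over Zfy1_hi. They ran from -0.19 to 0.08 in Zfy2_nf over XX and from -0.30 to -0.05 in Zfy1_lo over XX, and none passed among probes.

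The kinesin-6 motors Kif20b and Kif23 act at the midzone and midbody when the cell divides, Kif23 as part of centralspindlin. Kif20b read 9.18, 9.17 and 9.19 in Zfy2_Eif2s3y, 9.56, 9.34 and 9.05 in Zfy2_nf, 9.34, 9.52 and 9.42 in Zfy1_lo and 9.44, 9.73 and 9.66 in XX. In batch 2 Kif20b read 8.996, 9.23 and 9.37 in Zfy2 and 9.53, 9.49 and 9.36 in Zfy1_hi. Its log2 difference was negative in all 4 comparisons, from -0.29 to -0.18, and passed in none. The Zfy2_Eif2s3y arrays all lay below the XX arrays, with a log2 difference of -0.43 with XX alone as control (adjusted p = 0.055), and against the mean of XX and Zfy2_nf Zfy2_Eif2s3y gave -0.29 with an adjusted p of 0.138.

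Kif23 read 11.43, 11.55 and 11.41 in Zfy2 and 11.69, 11.79 and 11.61 in Zfy1_hi, with no overlap. The log2 difference of -0.23 (SE 0.11) did not pass (adjusted p = 0.243), and the 4 Kif23 probes ran from -0.23 to 0.36 there. In batch 1 Kif23 read 11.52, 11.85 and 11.78 in Zfy2_Eif2s3y, 11.79, 11.81 and 11.85 in Zfy2_nf, 11.82, 11.82 and 11.70 in Zfy1_lo and 11.70, 11.77 and 11.60 in XX. The Zfy2_nf arrays lay above the XX arrays, by 0.13 (adjusted p = 0.795), and the Zfy2_Eif2s3y arrays overlapped both.

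Kif7, which organises the tip of the primary cilium and tunes Hedgehog signalling, sat near background with a pattern of detection by genotype. It was detected on all 3 Zfy2_Eif2s3y arrays, at 5.48, 5.07 and 5.20, on 0 Zfy2_nf arrays, at 4.68, 4.62 and 4.75, on 1 of 3 Zfy1_lo arrays, at 4.42, 4.53 and 5.18, and on all 3 XX arrays, at 5.40, 5.25 and 5.59. In batch 2 it was detected on no array, at 4.75, 4.76 and 4.52 in Zfy2 and 4.57, 4.55 and 4.48 in Zfy1_hi. Kif7 had the smallest p of the kinesins in both comparisons with XX, and neither passed. Zfy2_nf over XX gave -0.73 (SE 0.17, 95% interval -1.09 to -0.37, adjusted p = 0.191). With the undetected Zfy2_nf arrays raised to the lowest detected signal of their array, the mean was 1.49-fold below XX. That figure takes no account of the error between replicates. Zfy1_lo over XX gave -0.70 (adjusted p = 0.339), and -0.94 with an adjusted p of 0.0488 without the third Zfy1_lo array. Both share the 3 XX arrays. The Zfy2_Eif2s3y arrays overlapped those of XX, and their difference from the mean of XX and Zfy2_nf was 0.20 (95% interval -0.11 to 0.52).

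Kif24, which trims microtubules at the mother centriole and holds back cilium growth, was chosen after its values were seen. It read 8.52, 7.90 and 8.31 in Zfy2 and 8.88, 8.84 and 8.85 in Zfy1_hi. The arrays did not overlap, and the log2 difference of -0.61 (SE 0.21) missed the threshold with an adjusted p of 0.0961. The 4 Kif24 probes ran from -0.61 to 0.31 in this comparison, the widest spread of any kinesin there. In batch 1 Kif24 differed by -0.35 in Zfy2_Eif2s3y (adjusted p = 0.255). Kif27 and Kif9, linked to motile cilia, and Kif26a differed by -0.23 to 0.35 in Zfy2_Eif2s3y and by -0.23 to 0.08 in Zfy2, with none passing.

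Probes of the same kinesin often disagreed in direction. Of 15 genes with more than 1 kept probe, all probes had the same sign in 8 in Zfy2_Eif2s3y over the mean of XX and Zfy2_nf, in 4 in Zfy2 over Zfy1_hi, in 6 in Zfy2_nf over XX and in 7 in Zfy1_lo over XX. The median distance between the highest and lowest probe was 0.30, 0.43, 0.27 and 0.23 on the log2 scale. The median size of change, with 1 probe per gene, was 0.20 and 0.15 over the 30 kinesins in the comparisons with Zfy2_Eif2s3y and Zfy2. It was 0.19 in each over all genes. A range over several probes is not the same measure as the size of 1 change. How often the probes of all genes disagreed was not counted. Kif21b had 1 kept probe, so its fall has no second reading here.

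**Figure D4:**
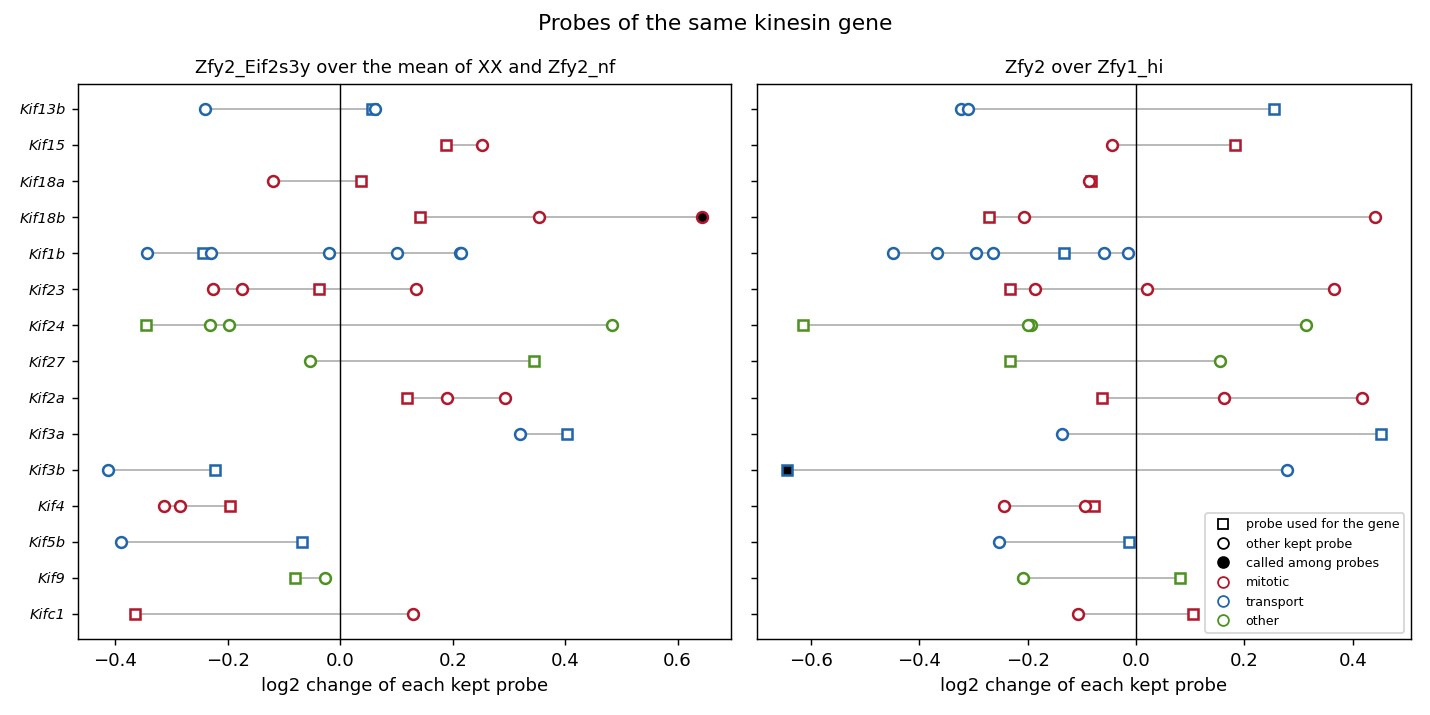
Log2 change of each kept probe (points, squares for the probe used) of the 15 kinesin genes with more than 1 kept probe, on the left for Zfy2_Eif2s3y over the mean of XX and Zfy2_nf and on the right for Zfy2 over Zfy1_hi. Filled points passed among probes. The 2 Kif3b probes lie at -0.64 and 0.28 on the right, and the points of 4 genes lie on 1 side of 0 there, against 8 on the left.

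The size of the differences between genotypes lay near that of all genes. The range of a gene's 6 genotype means had a median of 0.54 over the 30 kinesins and 0.55 over all genes, and the SD between replicates a median of 0.23 in both. The difference in Zfy2_Eif2s3y and that in Zfy2, which rest on separate arrays, had the same sign for 21 of 30 kinesins (70%), 15 of them negative, and for 67.7% of all genes. By the probes used, the transport motors Kif21b and Kif3b were negative in both and Kif3a positive in both. Kif21b passed only in Zfy2_Eif2s3y, Kif3b only in Zfy2 and Kif3a in neither. In Zfy2 the second probes of Kif3b and Kif3a had the other sign, at 0.28 and -0.14.

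Partners of the kinesins were counted in the same way. Over all genes tested, 5.19% rose and 6.13% fell in Zfy2_Eif2s3y, and 3.07% rose and 4.42% fell in Zfy2. Of 12 measured light chains and adaptors 1 rose and 0 fell in Zfy2_Eif2s3y, and likewise in Zfy2. It was Mapk8ip3, a scaffold that links kinesin-1 to its cargo and also binds dynein. It read 6.49, 6.42 and 6.17 in Zfy2_Eif2s3y, against 5.59, 5.43 and 5.60 in Zfy2_nf and 5.33, 6.01 and 5.37 in XX, and 6.82, 6.32 and 6.51 in Zfy2, against 5.64, 5.70 and 5.57 in Zfy1_hi. The groups did not overlap in either batch, and the changes were 0.81 (SE 0.16, adjusted p = 0.00365) and 0.91 (SE 0.19, adjusted p = 0.00672). A second probe gave 0.57 in batch 1 (adjusted p = 0.055), and with the position on the slide in the fit the batch 2 change was 0.65 (adjusted p = 0.131). The light chain Klc1 differed by -0.27 (adjusted p = 0.3) and 0.35 (adjusted p = 0.286).

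Dynein is the minus-end motor and dynactin its activator. Of 27 measured genes of this list, 3 rose and 0 fell in Zfy2_Eif2s3y, beside 5.19% and 6.13% of all genes. In Zfy2, 1 rose and 0 fell, beside 3.07% and 4.42%. Nde1, which with Lis1 holds dynein on the microtubule, was the gene that rose in both. It read 9.45, 9.59 and 9.31 in Zfy2_Eif2s3y, against 7.81, 8.04 and 7.90 in Zfy2_nf and 7.45, 8.15 and 7.99 in XX, and 9.11, 9.24 and 9.43 in Zfy2, against 7.68, 7.78 and 7.74 in Zfy1_hi. The changes were 1.56 (SE 0.15, adjusted p = 6.41e-06) and 1.53 (SE 0.17, adjusted p = 5.14e-05), with no overlap in either batch. Dctn3, a dynactin subunit, rose by 0.69 (adjusted p = 0.00808) and Ndel1, the relative of Nde1, by 0.33 (adjusted p = 0.0453) in Zfy2_Eif2s3y. With the slide as a fixed block their adjusted p-values were 0.097 and 0.0953. Dctn3 passed in 19 of 22 alternatives (adjusted p up to 0.165) and Ndel1 in 7 (up to 0.202). Ndel1 also read 0.31 higher in Zfy1_lo than in XX, with no overlap, and did not pass (adjusted p = 0.538).

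Spindle partners are proteins that bind microtubules or feed the spindle motors. Of 22, 3 rose and 1 fell in Zfy2_Eif2s3y, beside 5.19% and 6.13% of all genes. In Zfy2, 1 rose and 1 fell, beside 3.07% and 4.42%. The end-binding protein Mapre3 rose in both, by 0.80 (adjusted p = 0.018) and 1.16 (adjusted p = 0.00685). Its arrays overlapped in batch 1, and with the slide as a fixed block the batch 1 adjusted p was 0.0922. In Zfy2_Eif2s3y it passed in 17 of 22 alternatives, with changes of 0.35 to 1.11 and adjusted p-values up to 0.264. In Zfy2 it passed in all 16. Mapre3 also read 0.62 higher in Zfy2_nf than in XX, with no overlap, and did not pass (adjusted p = 0.432). Mapre2, a relative of Mapre3, fell by 0.83 (adjusted p = 0.00107) in Zfy2_Eif2s3y and read 0.46 lower on the log2 scale in Zfy2 (adjusted p = 0.103). Ckap5, a microtubule polymerase, rose by 0.49 (adjusted p = 0.00408) and Hmmr, a spindle assembly factor, by 0.49 (adjusted p = 0.042) in Zfy2_Eif2s3y. Ckap5 passed in 21 of 22 alternatives, but Hmmr in 8, with changes of 0.23 to 0.62 and adjusted p-values up to 0.271. Kpnb1, the importin that shields spindle factors, fell by 0.75 (adjusted p = 0.022) in Zfy2, and with the position on the slide in the fit its adjusted p was 0.205. Of 13 measured tubulins 0 rose and 2 fell in Zfy2_Eif2s3y, Tuba3a by 0.58 (adjusted p = 0.016) and Tuba4a by 0.30 (adjusted p = 0.0453), and none passed in Zfy2. The Tuba3a arrays overlapped, and Tuba3a passed in 16 of 22 alternatives (adjusted p up to 0.284) and Tuba4a in 8 (up to 0.302). In Zfy2_nf over XX and in Zfy1_lo over XX none of these 4 lists had a member that passed. Their shares of calls stand beside 11.3% of all genes in Zfy2_Eif2s3y and 7.49% in Zfy2.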

How the data were processed

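Gene expression was measured on 18 Illumina mouse bead arrays, 3 for each of 6 genotypes. The deposited non-normalized table held the bead intensity of 45281 probes on each array. It also held, per the file headers, a detection p-value for each probe on each array. A deposited series matrix held a second, linear intensity, and how the authors normalized it is not given in the sources used here. GenomeStudio is named, without a version, per the submitters' processing notes. Per the labels, amplified cDNA from total RNA carried a biotin label.

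The intensities were background corrected and quantile normalized with neqc of limma 3.58.1 in R 4.3.3 (background estimated from the detection p-values, offset 16). Probes with a detection p under 0.05 on at least 3 arrays were kept, and the kept probe with the highest mean stood for its gene, which left 12184 of 19057 named genes. A limma fit with 6 group means (12 residual degrees of freedom) gave two-sided p-values, adjusted by Benjamini-Hochberg over all genes, and a gene passed at an adjusted p under 0.05. The fit was tested on simulated data. Intervals are 95% confidence intervals. The number of arrays limits the precision, and depth does not apply to arrays. Levels of different probes were not compared. No test was made across batches, which share no genotype. No arrays were identical.

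Every array value is given for kinesins that passed, for the smallest p in each comparison, and for Kif11, Kifc1, Kif4, Kif18a, Kif20b, Kif23, Kif2a, Kif5b, Kif3a, Kif3b and Kif17. The other members are given by ranges and counts, and up to 4 called genes per related list and comparison are named. The members and lists were chosen with earlier results of these data known. Related lists held 18 light chains and adaptors, 30 genes of dynein and dynactin, 22 spindle partners and 16 tubulins. Marker lists held 10 oocyte, 12 granulosa and cumulus and 6 blood genes, of which 2 blood genes were measured, near background, with a summed signal of 45 to 60.

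Alternatives were the series matrix values, no background correction, other detection filters, a gene's second probe, slide or replicate number as a block, the compared groups only, each control alone, slide 2 alone and each array left out. The position on the slide (upper or lower) as a covariate was added after the data were seen. On slide 3 it is the same split as genotype, so its effect was estimated from the other slides. It does not control for place in Zfy2 over Zfy1_hi. Replicate numbers are shared between groups in the labels. Whether they pair arrays was checked by the correlation of deviations from the group means, which was -0.137 to 0.0877 between arrays of the same number, so they were not taken as pairs.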

Additional observations from a re-analysis of the deposited data

How the results depend on the processing

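The count of 1 kinesin gene passing in Zfy2_Eif2s3y over the mean of XX and Zfy2_nf became 2 with a gene's second probe (adding Kif18b), with the slide as a fixed block (adding Kif3a) and with XX alone as control (adding Kif11), and 0 on slide 2 alone. Leaving out 1 array gave 1 to 2 (Kif1c added without the first XX array). In Zfy2 over Zfy1_hi the count of 1 became 0 with the second probe, with the position on the slide as a covariate and with the compared groups only (Kif3b adjusted p = 0.0559). Leaving out 1 array gave 0 to 1. In Zfy2_nf over XX the count was 0 under every alternative run, and in Zfy1_lo over XX it was 0 except without the third Zfy1_lo array, so 0 to 1 (Kif7). With the replicate block the counts were 1, 1, 0 and 0 in the 4 comparisons, as without it, and Kif21b and Kif3b changed by -0.998 and -0.64. The Kif3b change in Zfy2 over Zfy1_hi reversed to 0.28 with its second probe. Kif21b passed in 21 of 22 alternatives, with changes of -1.19 to -0.72, and Kif3b in 10 of 16. The cause of these shifts was not tested. Counts over all genes moved by more than 1.5 times from 1379 to 762 with the slide as a fixed block, 764 with Zfy2_nf alone as control and 187 on slide 2 alone, where 6 arrays remained, and from 913 to 305 with the position covariate. With 1 array left out they ran from 822 to 1514, 555 to 657, 3 to 17 and 0 to 3. The count of 9 in Zfy2_nf over XX was 5 with the slide as a fixed block, the replicate block or the compared groups only. Genes near background, such as Kif7, Kif3c and Kif1a, give only bounds on some arrays.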
